A study of Rattus norvegicus with 8 samples.

Results

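The regions described here are H3K27ac peaks of injured rat sciatic nerve that lay in groups of 3 or more with no sham peak among them. Both condition lists were pooled, and on each chromosome a peak was linked to the one before it when it began at most 12500 bp after the furthest end so far. A linked group is called a domain. A domain was taken when it held 3 or more injury peaks and 0 sham peaks, which gave 831 domains with 3310 peaks out of 16558 domains and 31894 injury peaks in all. These counts are set by the choice and describe it. They carry no test. The lists came from male Sprague Dawley rats operated on at postnatal day 25 and sampled at day 28 per the labels, 72 h after surgery. In the injury group the sciatic nerve of one leg was transected, and the sham group was the other leg, which received a skin incision only, so both conditions were taken from operated animals. In each condition 2 H3K27ac immunoprecipitations and 2 inputs were labelled, but 1 peak list was deposited per condition, so no value has a replicate error, and the depth of the libraries is unknown. How many animals were pooled for a sample is not stated in the labels, and the lists allow no check of the tissue by its marker genes.

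H3K27ac is acetylation of lysine on the tail of histone H3, placed by the acetyltransferases CBP and p300, and it marks promoters and enhancers in use. Several acetylated sites close together often belong to one regulatory region, and linking neighbouring peaks into domains is the usual first step in describing such clustered enhancers. Sciatic nerve consists of axons, the Schwann cells that wrap them, fibroblasts, vessels and resident macrophages. After a cut, the axons beyond it degenerate, Schwann cells leave the myelinating state for a repair state, and macrophages enter. The nerve was profiled as whole tissue, so more cells of a type and more acetylation per cell cannot be told apart at any region below. Positions are 1-based on the rat build Rnor_5.0, and no gene, exon or intron is named because no annotation of that build was used here.

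Injury-only domains were mostly small. Of the 831, 436 (52.5%) held exactly 3 peaks and 224 held 4, while 171 held 5 or more and 14 held 10 or more. Their median span was 7 kb, with quartiles at 3.1 and 12.1 kb and a longest span of 55.6 kb. Together their peaks covered 1.53 Mb, which was 9.09% of the base pairs in the injury list. A median of 26.1% of a domain was covered by peaks, and the gap between neighbouring peaks had a median of 0.601 kb. The domains ranged from tight to loose: in 206 (24.8%) no gap exceeded 1 kb and a median of 63.1% of the domain was covered, whereas in 370 (44.5%) at least 1 gap was over 5 kb and the median covered share was 13.1%. The same rule with the lists exchanged gave 390 sham-only domains with 1580 peaks. Of the injury list 10.4% (95% Wilson interval 10.0 to 10.7) fell in injury-only domains, and of the sham list 5.62% (5.36 to 5.9) fell in sham-only domains. These intervals and all that follow cover counting error over peaks only, and they are too narrow where several peaks share a domain. The order of the counts depended on which narrow peaks were kept. Without the peaks of the smallest width, 199 bp, in either list, there were 624 injury-only and 279 sham-only domains. With these narrow peaks removed from the injury list alone, which leaves 22271 injury peaks against 28114 sham peaks, there were 448 and 595.

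The member peaks were as narrow as other injury peaks by their median and wider than other peaks called in injury alone. Their median width was 299 bp, with quartiles at 199 and 599 bp and a mean of 463 bp. Injury peaks outside these domains that overlapped no sham peak had the same median, an upper quartile of 399 bp and a mean of 386 bp. All injury peaks outside these domains had a larger mean than the members, 537 bp, and 10.7% of them were over 1 kb. Peaks of sham-only domains were near the members, with a mean of 448 bp and 7.47% over 1 kb. Over 1 kb were 219 member peaks (6.62%, 5.82 to 7.51) and 3.98% (3.69 to 4.29) of those other injury peaks, while 30.8% and 40.4% stood at the smallest width. In 174 domains (20.9%) at least 1 peak was wider than 1 kb. The widest member peak, 5599 bp at chr7:109024801-109030399, opened a domain of 6 peaks and was not in the injury differential list. The next widest was 3399 bp at chr9:17230201-17233599, and it was in that list. A pair of peaks of 3099 bp followed, at chr11:30371401-30374499 and chr9:97843601-97846699, neither of them differential, and then a differential peak of 2999 bp at chr10:76155701-76158699. In the domains around the chromosome 11 and chromosome 10 peaks, 82.3% and 80% of the span was covered, so both were close to continuous.

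The domains with the most peaks differed widely in how many of their peaks the authors had scored as differential. Among the 9 domains with more than 10 peaks, 42 of 117 peaks (35.9%) were in the authors' deposited injury differential list. This was near the share over all member peaks, 34.6%. The share was 13.5% over all injury peaks and 22.0% over injury peaks that overlapped no sham peak. A further 5 domains held 10 peaks each, of which the one with the most covered base pairs, on chromosome 3, is taken here as the tenth. With it the 10 domains held 127 peaks, 48 of them (37.8%) differential, and the other 4 domains of 10 peaks held 3 to 7 differential peaks each. At chr5:130082501-130126799, 12 of 16 peaks were differential. They lay along the whole 44.3 kb, and the 4 that were not differential measured 599 bp in one case and 199 bp in the others. At chr20:22262301-22295799, 15 peaks covered 10.9 kb, the most base pairs of any injury-only domain, and 1 was differential, a peak of 199 bp at its very start. At chr2:217583101-217609599, none of 13 peaks was differential, and 1 of them was over 1 kb. This last domain was called in injury alone although none of its peaks was scored as different.

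**Figure D1:**
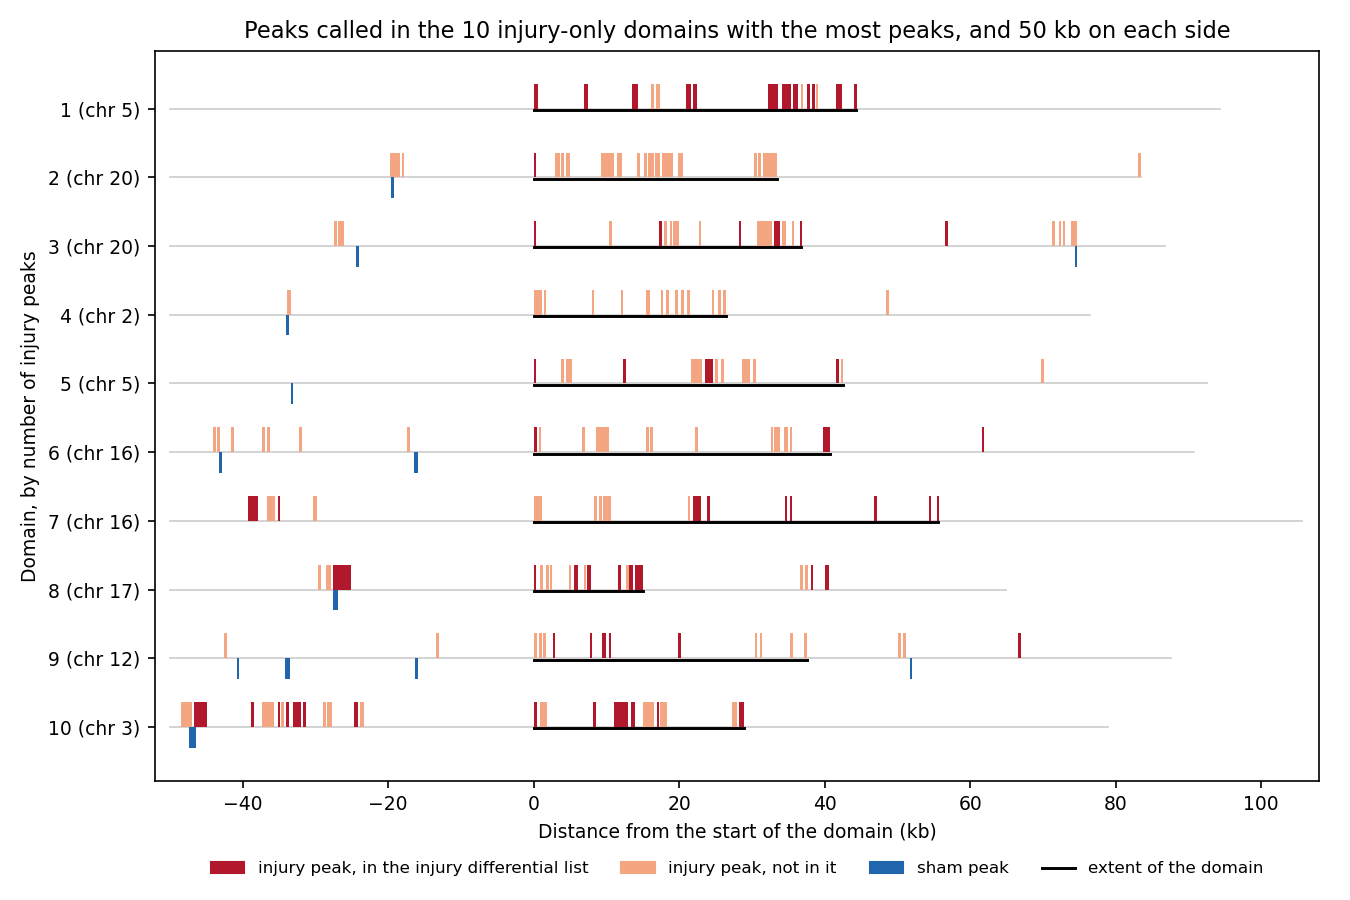
Peaks in the 10 injury-only domains with the most injury peaks (row 10 is the one with the most covered base pairs among 5 domains of 10 peaks), drawn by distance in kb from the start of each domain, with 50 kb shown on each side; injury peaks stand above the line (dark red in the injury differential list, light otherwise), sham peaks below it, and very narrow peaks are drawn 0.35 kb wide so that they can be seen. The chromosome 5 domain in the top row is mostly dark, with 12 of 16 peaks differential, while the chromosome 2 domain in row 4 has none of 13, and only domains 1 and 7 have no sham peak within 50 kb.

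In several of these domains the differential peaks stood side by side. The domain at chr16:47873801-47929399 was the longest, at 55.6 kb, and held 12 peaks. Its first 5 were not differential although 2 of them were over 1 kb, and its last 7, from chr16:47895701 on, all were. The domain at chr12:25228901-25266499 also held 12 peaks, and its 5 differential ones were consecutive in the middle. On chromosome 16, a further domain at chr16:48289801-48330599 had the reverse layout, with only its first and last of 12 peaks differential. The remaining 4 of the 10 were chr20:46189101-46225899 with 5 of 13 differential peaks, chr5:144483101-144525599 with 4 of 12, chr17:31635601-31650599 with 6 of 12 and chr3:142616601-142645499 with 6 of 10. The chromosome 17 domain was the densest of the 10, with 12 peaks in 15 kb and 33.3% of it covered.

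By number of differential peaks, the leading domains after that on chromosome 5 were chr7:65623801-65644499, where 7 of 7 peaks were differential, chr4:45370601-45399699, where 7 of 10 were, and the 55.6 kb domain on chromosome 16. A second domain of 10 peaks on chromosome 4, chr4:230447201-230470199, had 3 differential peaks. The chromosome 7 domain had a median peak width of 999 bp and covered 6.49 kb. Its nearest sham peak was 422 kb away. In contrast, the domain around the widest member peak, chr7:109024801-109045799, covered 7.79 kb and had none of 6 peaks in the differential list.

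The domains with the most peaks on the other chromosomes held 4 to 10 peaks. Chromosome 14 had 10 peaks at chr14:18155401-18181499, all at most 499 bp wide, 5 of them differential, and 487 kb from the nearest sham peak. Chromosome 18 had 10 peaks at chr18:75020001-75041399 with 3 differential. There were 9 peaks at chr1:222448101-222461399 and at chr1:224586801-224606399 (4 differential in each), at chr8:62181601-62208499 (1 differential) and at chr9:92969501-92994399 (3 differential). There were 8 peaks at chr6:117074801-117085399 (3 differential). Chromosome 10 had a pair of domains with 8 peaks, at chr10:37049101-37061799 (5 differential) and chr10:67173501-67183799 (3 differential), and so did chromosome 13, at chr13:106678601-106704399 (4 differential) and chr13:31099601-31133599 (1 differential). Chromosome 19 had 7 peaks at chr19:35850001-35859599, of which 2 were differential. There were 6 peaks at chr11:81129901-81148999 (4 differential) and in a pair of domains on chromosome 15, chr15:111722701-111755099 (3 differential) and chr15:65455101-65474099 (1 differential). The injury-only domain of chromosome X, chrX:64339101-64353699, held 4 peaks with 1 differential and was the only one on that chromosome.

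Member peaks stood in the authors' deposited injury differential list more often than injury peaks in general. Of the 3310 member peaks, 1144 (34.6%, 33.0 to 36.2) were differential, all with identical borders, and 0 were in the sham differential list. The background was 13.5% of all injury peaks and 22.0% of injury peaks that overlapped no sham peak. The differential list rests on the same contrast as the choice of domains, so this share is a description and was not tested. The 1144 made up 26.5% of the injury differential list. Among the 831 domains, 240 (28.9%) held no differential peak, 324 (39.0%) held 2 or more, and in 35 (4.21%) every peak was differential. In sham-only domains 38.9% (36.5 to 41.4) of peaks were in the sham differential list, against a background of 11.7% of all sham peaks and 21.8% of sham peaks that overlapped no injury peak.

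In injury-only domains the share of differential peaks was lowest for single peaks and highest in domains of 7 or more, without a steady rise between. Among injury peaks in domains without a sham peak, it was 24.8% (23.3 to 26.3) for 3200 peaks that stood alone and 31.9% (30.1 to 33.7) for domains of 2. It was 31.1% (28.7 to 33.7) for domains of 3, 35.4% (32.3 to 38.6) for 4, 34.8% (31.1 to 38.7) for 5 to 6 and 41.7% (37.5 to 46.0) for 7 or more. These intervals treat peaks as independent, although the 506 peaks of the last class came from 58 domains. Whether the classes differ was not tested. Mean peak width did not follow the share at every step. It was 337 bp for single peaks, 400 bp in domains of 2 and 424 bp in domains of 3. In domains of 4, of 5 to 6 and of 7 or more it was 477, 503 and 496 bp. Sham-only domains had shares of 30.6% for single peaks, 29.9% for domains of 2 and 35.6% for domains of 3. Their shares were 36.5% for 4, 41.8% for 5 to 6 and 47.5% (41.2 to 53.8) for 7 or more.

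**Figure D2:**
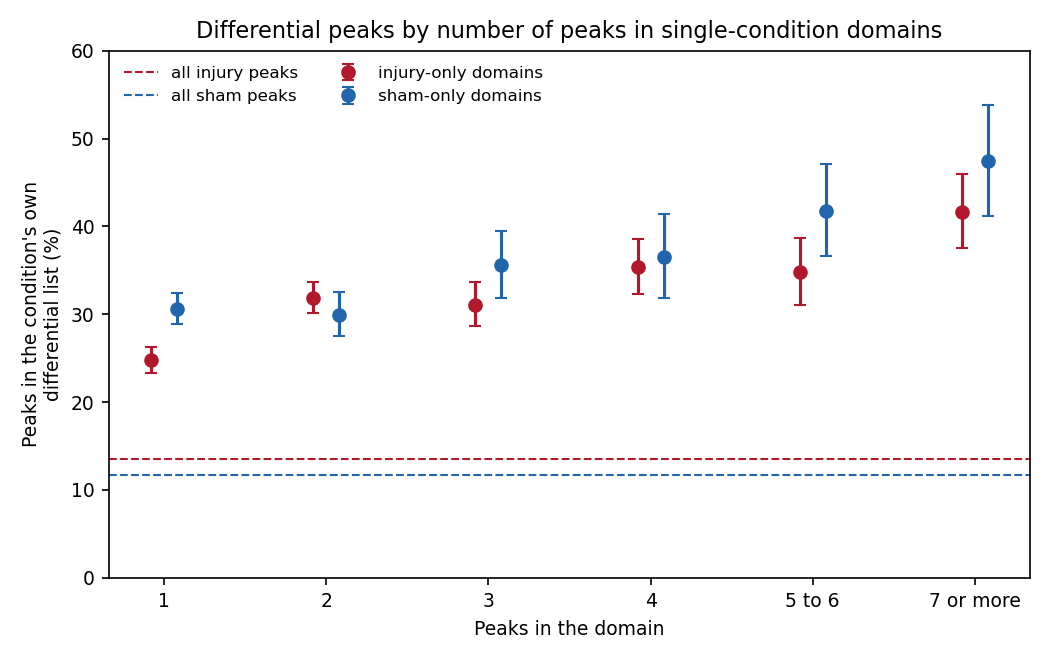
Share of peaks in the differential list of their own condition (%, vertical axis) by the number of peaks in domains that hold peaks of 1 condition only; points are shares over all peaks of the class, bars are 95% Wilson intervals, and dashed lines are the shares over all peaks of each list. The injury points lie between 24.8% for single peaks and 41.7% for domains of 7 or more. The injury line, at 13.5%, also counts injury peaks that overlap a sham peak, and no plotted peak does. Among injury peaks that overlap no sham peak the share was 22.0%, which is not drawn.

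The share was also higher than in other peaks called in injury alone when peaks of like width were set side by side. At the smallest width of 199 bp, 32.4% of member peaks were differential, against 18.0% of other injury peaks without a sham overlap. From 299 to 499 bp the shares were 34.9% and 20.1%, from 599 to 999 bp 35.1% and 19.9%, and from 1099 bp up 40.6% (34.3 to 47.3) and 24.9% (21.7 to 28.4). The member share was higher in each of these width classes. Of the 15935 other peaks, 8150 lay in domains of 3 or more injury peaks that also held sham peaks, which the rule excludes. In injury-only domains of 2 peaks, too small for the rule, the share over all widths was 31.9%. Clustering and the absence of sham peaks therefore cannot be told apart in this comparison, which was not tested. The share was lower where the domain held more sham peaks. The rule uses that number and the differential list rests on the same contrast, so this is a description and was not tested. In domains with 3 or more injury peaks, injury peaks that overlapped no sham peak were differential in 34.6% of cases with 0 sham peaks in the domain, 21.3% (19.5 to 23.2) with 1, 17.8% with 2 and 11.6% (10.5 to 12.7) with 5 or more. With 3 to 4 sham peaks, 251 of 1670 were.

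Within injury-only domains, a differential peak was followed by another more often than a peak that was not differential. Of 2479 pairs of neighbours, 385 (15.5%) had both peaks differential, 961 (38.8%) had 1, and 1133 (45.7%) had none. The next peak was differential in 44.3% (41.0 to 47.6) of cases after a differential peak and in 29.6% (27.4 to 31.9) after another peak. Differences in share between whole domains and the order of peaks within a domain cannot be told apart in this count. By place in the domain, the share was 33.5% (31.3 to 35.8) for first and last peaks and 35.6% (33.3 to 38.0) for inner ones. The widest peak of a domain was differential in 31.2% (28.1 to 34.4) of domains, and the other peaks in 35.7% (33.8 to 37.6). Where several peaks of a domain shared the largest width, the first by position was counted as the widest. In tight and loose domains the shares were 35.0% (31.5 to 38.7) where no gap exceeded 1 kb and 34.5% (32.3 to 36.8) where a gap exceeded 5 kb.

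Of the 831 domains, 395 lay more than 50 kb from any sham peak. The rule keeps sham peaks more than 12500 bp away, and the median distance from a domain to the nearest one was 47 kb, with quartiles at 25.2 and 97.5 kb. No sham peak lay within 50 kb of 47.5% of the domains, within 100 kb of 201 (24.2%) or within 500 kb of 16 (1.93%). The differential share was 27.3% (24.4 to 30.5) in domains with a sham peak up to 25 kb away, 34.0% at 25 to 50 kb, 36.6% at 50 to 100 kb and 40.7% (37.3 to 44.2) beyond 100 kb. Mean peak width did not follow that order, at 457, 475, 464 and 456 bp. For sham-only domains the median distance to an injury peak was 49 kb, and 49.5% had none within 50 kb. Their differential shares in the same classes of distance were 35.8%, 35.8%, 35.0% and 47.9%. The distances and the differential lists rest on the same contrast, so the shares by distance were not tested.

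**Figure D3:**
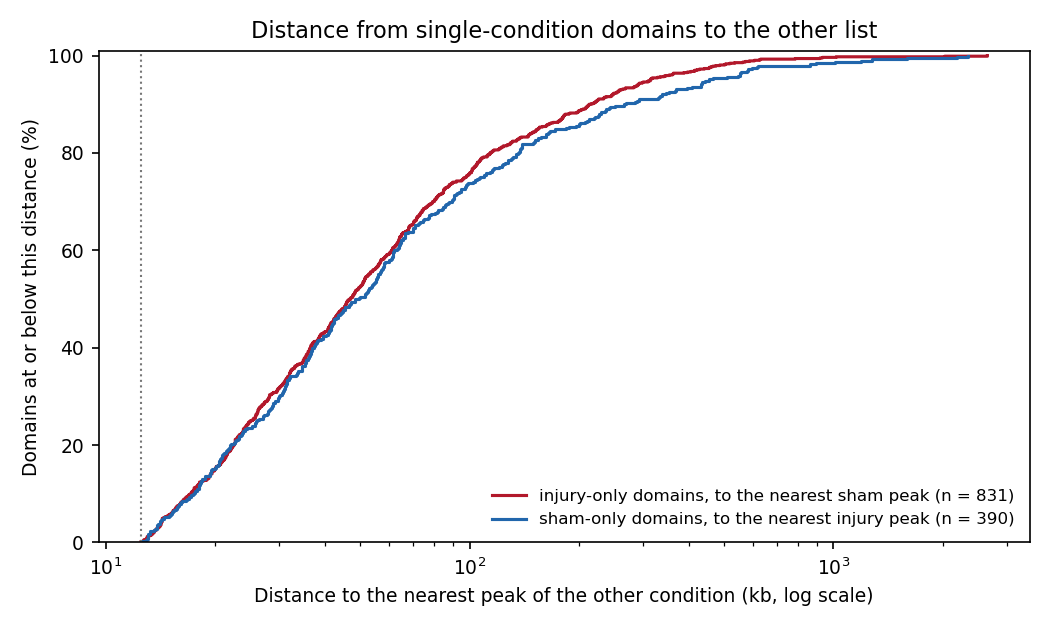
Cumulative share of domains (%) by distance to the nearest peak of the other condition (kb, log scale), for the 831 injury-only and the 390 sham-only domains; the dotted line marks the link distance of 12500 bp below which the rule allows no value. Both curves run close together, with medians of 47 and 49 kb.

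The 5 domains farthest from a sham peak held 3 to 6 peaks over 6.3 to 16.8 kb. That at chr4:17355701-17371099 lay 2.65 Mb from the nearest sham peak and held 4 peaks of 399 to 1399 bp, 3 of them differential. The domain at chr9:102728401-102736899 lay 2.02 Mb away with 1 of 3 peaks differential. At chr7:90309601-90326399, 1.02 Mb away, 4 of 6 peaks were differential although none was wider than 299 bp. The other two were chr12:44535201-44541499 at 0.933 Mb and chr8:30286501-30293299 at 0.919 Mb, each with 1 differential peak among 4. These 5 were picked by their distance, so the distance itself is no finding about them.

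Some injury-only domains were neighbours. The distance from a domain to the next one had a median of 524 kb, and 189 domains (22.7%) had another within 100 kb. They formed 86 runs, of which 15 held 3 or more domains, and in 65 runs no sham peak lay anywhere between the first and the last domain. The most domains in a run were 4, in 2 runs. That at chr4:222403201-222502199 held 18 peaks, 8 of them differential, over 99 kb, and had no other injury peak and no sham peak. That at chr14:60001701-60087699 held 14 peaks, 2 of them differential, over 86 kb, and 1 sham peak lay within it. On chromosome 2, a pair of domains at chr2:76896601-76902999 and chr2:76943301-76959999 each had 6 of 7 peaks differential. The pair was chosen for mention once its values were known.

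Counted between 2 consecutive sham peaks, the stretch with the most injury peaks was on chromosome 9. There, 32 injury peaks from chr9:16967501 to 17553599, 20 of them differential, lay in 716 kb without a sham peak. Of the 32, 21 belonged to 5 injury-only domains, and the other 11 lay outside such domains. The 5 domains were chr9:16967501-16970999 with 2 of 4 peaks differential, chr9:17218501-17235899 with 3 of 5, chr9:17449601-17455699 with 2 of 4, chr9:17475701-17496799 with 3 of 5 and chr9:17526901-17531899 with 3 of 3. The second of them contains the differential peak of 3399 bp described above. Next came 3 stretches with 25 injury peaks each. From chr13:75807301 to 76236399, 15 were differential and 18 lay in 4 injury-only domains, in 518 kb without a sham peak. From chr3:142577801 to 142714199, 13 were differential and 10 lay in 1 injury-only domain, in 149 kb. From chr7:78584101 to 80711799, 9 were differential and 16 lay in 4 injury-only domains, in 2.17 Mb. In all, 172 such stretches held 10 or more injury peaks and 11 held 20 or more, while 81 stretches between consecutive injury peaks held 10 or more sham peaks and 2 held 20 or more. The largest number of either kind was 42 sham peaks, 27 of them in the sham differential list, from chr2:105051801 to 108084499. This count was added after the domains had been seen, and the lists compared in it differ in length, as given above.

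Injury-only domains lay on all 20 autosomes, and chromosome X had 1. Member peaks made up 8.17% (6.45 to 10.3) of the injury peaks of chromosome 18, the lowest autosome, and 14.4% (12.3 to 16.7) of those of chromosome 16, the highest, followed by chromosome 4 with 13.8% (12.2 to 15.4). On chromosome X the share was 4 of 377 peaks, or 1.06% (0.413 to 2.7), below the interval of every autosome. Injury peaks of chromosome X were also less often clustered, with 42.4% in domains of 3 or more injury peaks against 62.2% over all chromosomes. Among such domains, 1 of 28 on chromosome X held no sham peak (3.57%), against 22.2% of all 3739 and 16.9% to 28.8% on single autosomes. Of the injury peaks of chromosome X, 50.4% overlapped no sham peak, against 60.3% over all chromosomes. For sham-only domains the share of sham peaks was 3.77% on chromosome X, inside the autosomal range of 2.62% to 10.7%. The order of chromosomes was not the same for both conditions. Chromosomes 5 and 18 had the highest sham-only shares, 10.7% and 9.55%. Both exceeded the injury-only shares there, 10.1% (8.79 to 11.6) and 8.17% (6.45 to 10.3), but lay inside those intervals. On chromosome X, with 5 sham-only domains and 1 injury-only domain, the sham-only share was also the higher. No test was made over chromosomes, since neighbouring peaks are not independent.

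**Figure D4:**
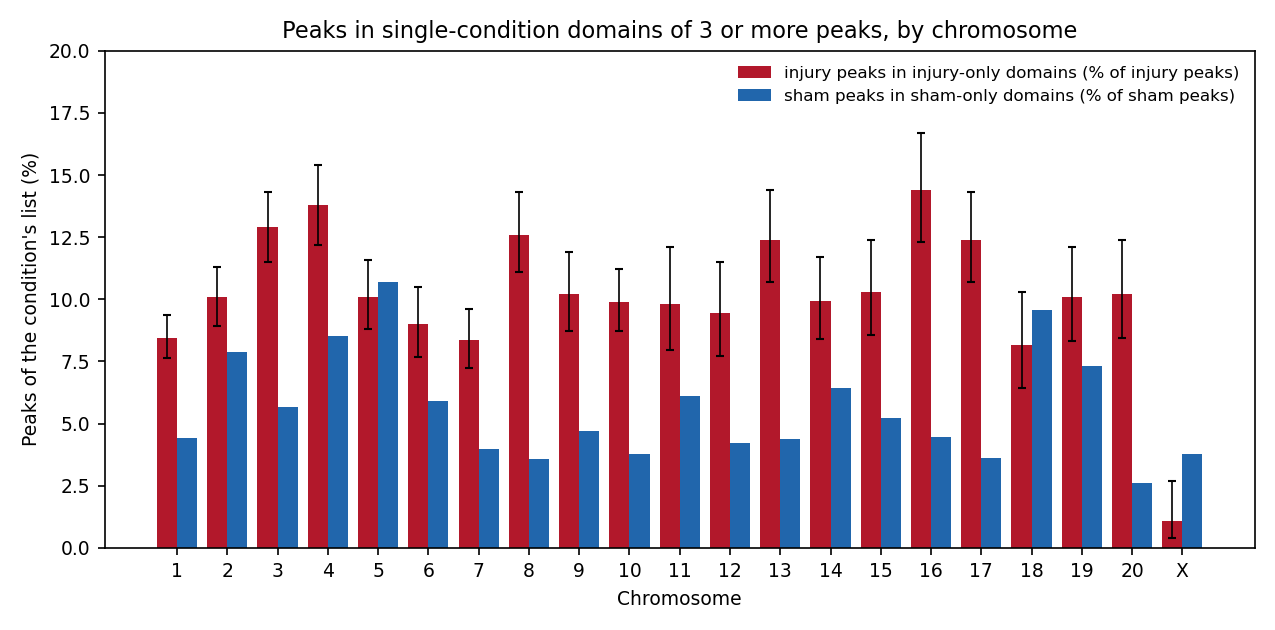
Peaks in injury-only domains as a percentage of the injury peaks of each chromosome (red, with 95% Wilson intervals) and peaks in sham-only domains as a percentage of its sham peaks (blue). The red bars lie between 8.17% and 14.4% on the autosomes and at 1.06% on chromosome X.

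The limits of the choice were as follows. Just inside it were the 436 domains of exactly 3 peaks, with a median span of 3.9 kb and 1.1 kb covered, and 47 domains of any size with a sham peak up to 15 kb away. Just outside were 1251 domains of 2 injury peaks without a sham peak, with a median span of 1.3 kb, and 571 domains of 3 or more injury peaks with 1 sham peak. In 440 of those 571 the sham peak overlapped an injury peak, and in 35 it lay over 5 kb from every injury peak. Since the sham list gives called peaks without signal, acetylation below its threshold inside an injury-only domain was not measured.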

How the data were processed

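H3K27ac ChIP-seq of rat sciatic nerve was available as 4 peak lists without library totals. Per the submitters' processing notes, CASAVA 1.8.2, Bowtie, HOMER and the build Rnor_5.0 were used, in roles those notes do not assign; the caller, its thresholds and the handling of replicates and inputs are not given in these sources. The authors deposited peak positions in base pairs and a running line number, with no score. Blank lines were dropped, and 8 peaks written with an exponent were read as whole numbers. Starts were taken as BED positions and are printed 1 higher. Domains, gaps and overlaps (at least 1 bp) were computed with Python 3.11.15, pandas 2.3.3 and scipy 1.17.1. The linking was tested on simulated data, where 2766 of 2766 planted domains were recovered. No simulated peaks overlapped, so the linking of overlapping peaks was not tested.

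The rule and the kinds of regions named were chosen with earlier results of these data known. Named regions are the 10 domains with the most peaks, the 5 with the most covered base pairs, with the most differential peaks and with the largest distance to a sham peak, the 5 widest member peaks and the leading domain of each chromosome, with ties in number broken by covered base pairs. Also named, outside this rule, are domains tied with the leading one on chromosomes 1, 4, 10, 13 and 15. Some runs of neighbouring domains, a pair on chromosome 2, and stretches free of 1 condition with their domains were added too. The choice used both lists and no replicate values were at hand, so no test was run. The gene table at hand is of another build (GRCr8), so genes and sequences were not used here. Alternatives were other link distances, peak numbers, width limits, flanks and ways to match the differential list. Leaving out chromosomes 1 and 14 was added after seeing the data.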

Additional observations from a re-analysis of the deposited data

How the results depend on the processing

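No paired analysis was possible because each condition came as 1 list without replicates, and leaving out a replicate was impossible too. Read depth is unknown, so how far it sets the number of domains cannot be told. The 831 domains and 3310 peaks became 410 and 1839 with peaks linked at most 50 kb apart, 2082 and 5812 with 2 or more injury peaks, 395 and 2002 with 4 or more, 448 and 1688 with the narrowest peaks removed from the injury list only, and 395 and 1567 with no sham peak within 50 kb. The differential share of 34.6% was 36.3% at a link of 25 kb, 36.6% at 50 kb and 36.8% with 4 or more peaks. It was 31% with the narrowest peaks removed from both lists and 36.7% with them removed from the injury list only. With no sham peak within 50 kb it was 38.7%. The backgrounds of 13.5% and 22.0% given above are for the full injury list. Every setting uses the same contrast as the differential list, so these shares are a description. The median width of 299 bp was 499 bp in both settings without the narrowest peaks, which follows from removing them. The median span of 7 kb was 3.65, 11.8 and 22.3 kb at links of 5, 25 and 50 kb, 2.1 kb with 2 or more peaks, 10.5 kb with 4 or more and 8.15 kb with the narrowest peaks removed from both lists. The other 22 values were within 1.5 times the reported count or within the interval of the reported share or median, including all 5 without chromosomes 1 and 14 (712 domains and 2842 peaks). Membership moved more than the counts: 2363 (71.4%) of the 3310 peaks were still members at a link of 5 kb, 2231 (67.4%) at 25 kb and 1221 (36.9%) at 50 kb.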
